A study of Homo sapiens with 3 samples.

Results

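Polycomb repressive complex 2 (PRC2) was followed through the transcripts of its 10 core and accessory subunits, EZH2, EZH1, SUZ12, EED, RBBP4, RBBP7, MTF2, PHF19, JARID2 and AEBP2, which were taken as every probe set whose platform annotation gave exactly one of these symbols. They had 38 probe sets of the 49293 on the array, and all 10 genes were measured. The cells were of the line KYSE180, from a human squamous cell carcinoma of the oesophagus, and RNA was hybridised to 3 arrays with 1 array per group. The first group was transfected for 48 h with the vector LZRS_HOTAIR, which carries the long non-coding RNA HOTAIR, using Polyfect. The second was transfected for 48 h with a mixture of Stealth siRNAs against HOTAIR, 100 pmol per well, using Lipofectamine2000. The third was labelled only as control, and no reagent, negative-control siRNA or time was stated for that sample. The source name of the siRNA sample refers to a HOTAIR cell line, whereas its title and cell line field name KYSE180, which was used here. Reagent and nucleic acid changed together with HOTAIR between the vector and siRNA groups, and those of the control are not known. An effect of HOTAIR and one of delivery therefore cannot be told apart in any comparison.

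PRC2 places methyl groups on lysine 27 of histone H3, a mark of silenced genes. EZH2 or its paralogue EZH1 is the catalytic subunit, and it is active only when held by SUZ12 and EED, while the WD-repeat proteins RBBP4 and RBBP7 bind histones. The core assembles with one of alternative sets of accessory proteins, either a Polycomb-like protein (MTF2, PHF19 or PHF1) or JARID2 with AEBP2, and these help to bring it to its target genes. HOTAIR has been described as an RNA that binds PRC2, which is why the level of the complex's own transcripts bears on experiments that raise or lower HOTAIR. The platform table named 0 probe sets for HOTAIR, so the level of HOTAIR itself was not analysed here and the arms were not checked by it.

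No group has a second array, so differences carry no p-value. The only spread that can be measured is how far probe sets of the same gene disagree on these arrays. It holds no variation between samples. Across 5982 genes that SD was 0.36 (log2) where vector and control arrays were compared, 0.39 for siRNA and control arrays, and 0.21 for vector and siRNA arrays. All levels below are log2 RMA signals, in which 1 unit is 2-fold, and a level is compared only between arrays for the same probe set. Each gene is first given by its brightest probe set, and genes were kept where that probe set averaged at least 5.28, the median of all probe sets. All 10 PRC2 genes passed, as did 29 of their 38 probe sets. The control array stood apart from the other arrays. Of 10917 genes kept, 15.2% exceeded control by 2-fold or more in vector cells and 2.05% fell below it by as much, and in siRNA cells 14.9% exceeded control and 1.85% fell below. Between vector and siRNA cells 1.73% were 2-fold higher in the vector and 1.85% lower. The median gene kept was at -0.18 (log2) relative to control in vector cells and at -0.17 in siRNA cells. The label of the cells was borne out by KRT5, at 11.72 in vector, 12.47 in siRNA and 12.64 in control cells, and all 6 squamous markers measured passed the filter, whereas 0 of 5 fibroblast and 0 of 3 endothelial markers did. CDX2 (intestinal) and CD68 (macrophage) also passed.

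Of the 10 PRC2 genes, SUZ12 and MTF2 were at least 2-fold higher than control in both arms, AEBP2 passed 2-fold in siRNA cells and lay just under it in vector cells, and EED was higher by less than 2-fold. The catalytic gene EZH2 and the histone-binding genes RBBP4 and RBBP7 lay near 0 on their brightest probe sets, and PHF19 was lower. None of the 10 was 2-fold lower than control, beside 2.05% of genes kept in vector cells and 1.85% in siRNA cells. Between the arms none of the 10 was 2-fold apart, beside 1.73% of genes kept higher in the vector and 1.85% lower. The count was 2 of 10 higher in vector minus control (20.0%, beside 15.2% of all genes kept) and 3 of 10 in siRNA minus control (30.0%, beside 14.9%). These shares rest on 2 and 3 genes and are not read as a result about the complex as a whole. In RNA from a whole culture, a change in all cells and one in a part of them cannot be told apart. The median of the 10 was 0.31 in vector minus control and 0.16 in siRNA minus control, beside the medians of -0.18 and -0.17 for all genes kept.

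**Figure D1:**
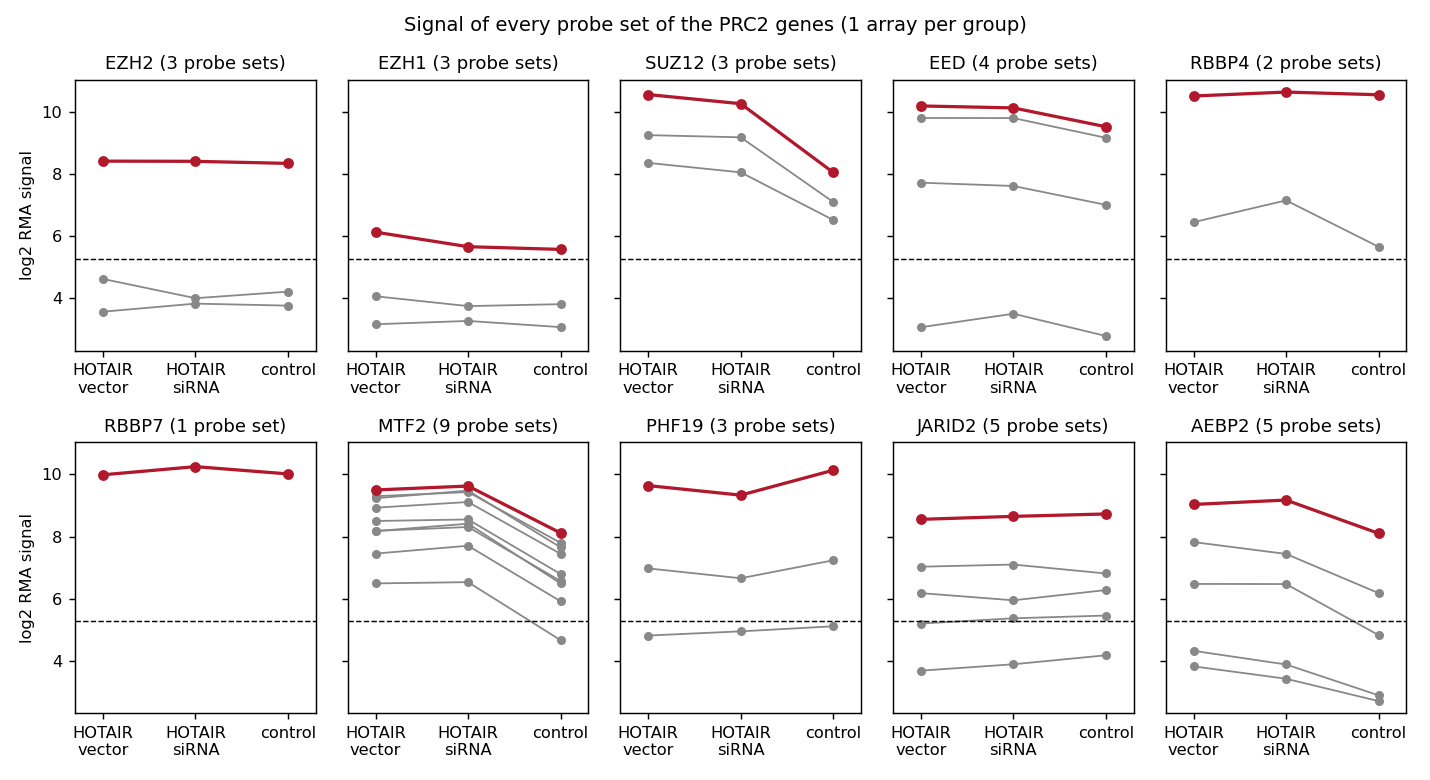
Log2 RMA signal (y axis) of each of the 38 probe sets of the 10 PRC2 genes on the HOTAIR vector, HOTAIR siRNA and control arrays (x axis), with 1 array per group and no error bars. Each line is 1 probe set, the red line is the brightest of the gene and the dashed line is the filter level of 5.28. All lines of SUZ12, MTF2, AEBP2 and EED are lowest in control.

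The proximal promoters of the genes that differed most from control are shown so that their sequence can be set beside the values below, with EZH2 for contrast. Each is the 250 bases before an annotated transcript start, 5′ to 3′, from RefSeq on GRCh38.p14, where windows were found for all 10 genes. The letters in capitals are matches on either strand to CCAAT (the NF-Y motif), GGGCGG (the Sp1 motif), CCGGAAG (an ETS motif), ATGGCG (a YY1 motif) or an E2F motif. The E2F motif was searched as TTTGGCGC, and in the same way as the string TTTCGCGC. The third string searched for it was TTTCCCGC, and the last string searched was TTTGCCGC. SUZ12 is at chr17:31936757-31937006 on the plus strand, MTF2 at chr1:93079033-93079282 on the plus strand, AEBP2 at chr12:19440349-19440598 on the plus strand and EZH2 at chr7:148884292-148884541 on the minus strand. The AEBP2 window precedes a transcript start within the annotated gene, whose own start is at 19404072. The other windows printed precede the annotated start of their gene.
SUZ12: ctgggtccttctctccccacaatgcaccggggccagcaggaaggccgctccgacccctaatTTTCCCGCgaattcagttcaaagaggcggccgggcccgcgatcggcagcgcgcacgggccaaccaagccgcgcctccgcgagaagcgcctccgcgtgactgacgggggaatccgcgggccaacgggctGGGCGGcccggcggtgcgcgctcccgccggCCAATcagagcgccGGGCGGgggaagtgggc
MTF2: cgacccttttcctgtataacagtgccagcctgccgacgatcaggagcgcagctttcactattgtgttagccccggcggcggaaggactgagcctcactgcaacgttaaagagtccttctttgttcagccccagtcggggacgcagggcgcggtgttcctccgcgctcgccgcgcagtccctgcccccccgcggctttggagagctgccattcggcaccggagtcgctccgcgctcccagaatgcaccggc
AEBP2: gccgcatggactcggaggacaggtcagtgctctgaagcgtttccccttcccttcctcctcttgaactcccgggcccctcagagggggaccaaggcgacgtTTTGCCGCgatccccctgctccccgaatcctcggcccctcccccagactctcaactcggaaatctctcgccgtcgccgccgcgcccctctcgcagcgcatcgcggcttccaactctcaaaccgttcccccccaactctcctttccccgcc
EZH2: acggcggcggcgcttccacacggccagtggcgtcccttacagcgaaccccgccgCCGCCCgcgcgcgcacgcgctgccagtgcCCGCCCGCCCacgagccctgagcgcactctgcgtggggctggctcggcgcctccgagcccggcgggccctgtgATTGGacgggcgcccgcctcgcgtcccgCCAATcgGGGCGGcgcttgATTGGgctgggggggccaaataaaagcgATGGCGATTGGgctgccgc

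None of the motifs searched was found in all of the SUZ12, MTF2 and AEBP2 windows. The E2F strings occurred 1 time each in the windows of SUZ12 and AEBP2, in none of MTF2 or of the printed EZH2 window, and also in windows of EZH1 and PHF19, beside 2.79% of 35116 promoter windows. The NF-Y motif occurred 1 time in SUZ12 and 4 times in EZH2, and 32.0% of all windows held it. The Sp1 motif occurred 2 times in SUZ12 and 4 times in EZH2, where a YY1 motif was also found, and 42.6% of all windows held the first and 6.50% the other. The ETS motif, in 8.52% of all windows, was in none of the printed ones, and the MTF2 window held none of the letters searched. GC content was 72.8% for SUZ12, 64.4% for MTF2, 66.0% for AEBP2 and 75.6% for EZH2, beside a median of 58.0% over all windows. A match is a string of letters and not a measured binding site.

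Among the core genes, EZH2, the main methyltransferase of dividing cells, had nearly the same level on all 3 arrays. Its probe set 11717657_a_at read 8.41 in vector, 8.40 in siRNA and 8.34 in control cells, a difference of 0.07 from control in each arm. After repeated quantile normalization these were -0.13 and -0.08, so no direction can be read. The other EZH2 probe sets averaged below the filter. EZH1, the paralogue found more in resting cells, read 6.13 in vector, 5.66 in siRNA and 5.57 in control cells on 11717324_at. It was the PRC2 gene with the widest gap between the arms on its brightest probe set, 0.47 in vector minus siRNA, and 6.85% of all genes kept had a larger difference in that direction. Its other probe sets were below the filter and had vector minus siRNA differences of 0.32 and -0.11.

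SUZ12, the scaffold that holds the catalytic lobe and binds the accessory proteins, differed most. The probe set 11739487_s_at read 10.55 in vector and 10.26 in siRNA cells, against 8.05 in control cells. The probe set 11739486_at read 9.25 in vector and 9.18 in siRNA cells, against 7.10 in control cells, and 11739485_a_at read 8.35 and 8.05, against 6.52. The control was thus the lowest array on all 3 probe sets, with the vector slightly above the siRNA array. The brightest probe set was 5.68-fold higher in vector cells (log2 2.51) and 4.63-fold higher in siRNA cells (2.21). Over the 3 probe sets the differences averaged 2.16 ± 0.33 for the vector and 1.94 ± 0.36 for the siRNAs (SD between probe sets of the same arrays, not between samples). SUZ12 was number 284 of 10917 genes in vector minus control, so 2.59% of genes kept were higher still, and number 276 in siRNA minus control. Under every scaling, filter and choice of probe sets tried, it stayed between 2.15 and 2.69 in vector cells and between 1.94 and 2.38 in siRNA cells.

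EED, the subunit that reads the methyl mark and stimulates the enzyme, was above control by a smaller and even amount. On 11728378_a_at it read 10.19 in vector and 10.12 in siRNA cells, against 9.52 in control cells. Its 3 probe sets above the filter gave 0.67 ± 0.04 for vector minus control and 0.62 ± 0.02 for siRNA minus control (SD between probe sets), or 1.59-fold and 1.52-fold on the brightest. Of all genes kept, 21.1% lay higher still for the vector and 22.3% for the siRNAs. The probe set below the filter, 11761834_at, gave 0.28 and 0.72.

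The histone-binding subunits RBBP4 and RBBP7, which also serve in histone deacetylase and chromatin assembly complexes, were near control on their brightest probe sets. RBBP4 read 10.51 in vector, 10.63 in siRNA and 10.55 in control cells on 11717239_s_at, and RBBP7 read 9.99, 10.25 and 10.02 on its only probe set, 11715433_a_at. The RBBP4 probe sets disagreed, since 11717240_at read 6.45 in vector and 7.15 in siRNA cells, against 5.66 in control cells. That is a difference of 0.79 in vector cells and 1.49 in siRNA cells, against -0.04 and 0.09 on the brighter one, so whether RBBP4 differs from control depends on the probe set. It was also the PRC2 probe set with the largest difference between the arms, -0.70 in vector minus siRNA.

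The accessory proteins went apart within each alternative set. MTF2, a Polycomb-like protein that binds DNA and methylated histone H3, read 9.50 in vector and 9.63 in siRNA cells, against 8.12 in control cells, on 11726605_x_at. All 9 of its probe sets were at least 2-fold higher than control in both arms. They averaged 1.59 ± 0.13 for the vector and 1.74 ± 0.13 for the siRNAs (SD between probe sets), with ranges of 1.38 to 1.83 and 1.51 to 1.92. The upper end for the vector came from 11726609_at, whose control level of 4.67 was below the filter level. That probe set passed through the arrays where it is high, so the size of its difference is uncertain. The brightest probe set, at 2.61-fold and 2.85-fold, was the lowest in each range. The arms were close, at -0.15 ± 0.08 in vector minus siRNA, with all 9 probe sets below 0.

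PHF19, also a Polycomb-like protein, lay on the other side of control. The probe set 11722880_a_at read 9.64 in vector and 9.33 in siRNA cells, against 10.14 in control cells, and 11736133_s_at read 6.98 and 6.66, against 7.24. The differences on the brightest probe set were -0.49 in vector and -0.80 in siRNA cells, and all 3 probe sets were below control in both arms. In siRNA minus control 93.5% of genes kept lay above PHF19, whereas in vector minus control its difference lay close to the lower quartile of all genes (-0.51). After centring on the median gene they were -0.31 and -0.63, and they kept their sign under every alternative tried. PHF1, the remaining Polycomb-like gene, was at -0.71 in vector and -0.65 in siRNA cells. On the deposited scale MTF2 was thus above control, and PHF19 and PHF1 were below it.

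AEBP2, a zinc finger protein that stabilises the complex, was above control on all 5 of its probe sets, of which 3 averaged above the filter. The brightest, 11724876_x_at, read 9.03 in vector and 9.18 in siRNA cells, against 8.10 in control cells, which is 1.91-fold (0.93) and 2.10-fold (1.07). The next, 11758578_s_at, read 7.82 and 7.44, against 6.18, and 11724877_a_at read 6.48 and 6.47, against 4.83. Their differences were larger than that of the brightest, 1.64 and 1.65 in vector cells and 1.26 and 1.64 in siRNA cells. The control level of 11724877_a_at, 4.83, was below the filter level. That probe set passed through the arrays where it is high, so the size of its difference is uncertain. AEBP2 crossed 2-fold in vector cells with the mean over probe sets (1.35, or 1.41 over those above the filter). Both means include 11724877_a_at, and the first also includes the AEBP2 probe sets that averaged below the filter, so their sizes are uncertain too. AEBP2 missed 2-fold in siRNA cells after repeated quantile normalization (0.94). JARID2, the catalytically inactive Jumonji protein that recruits PRC2 beside AEBP2, read 8.56 in vector, 8.65 in siRNA and 8.73 in control cells on 11720010_s_at. Its 5 probe sets lay between -0.50 and 0.22 in vector minus control and between -0.33 and 0.29 in siRNA minus control, with 1 above 0 in each, so no direction can be read.

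**Figure D2:**
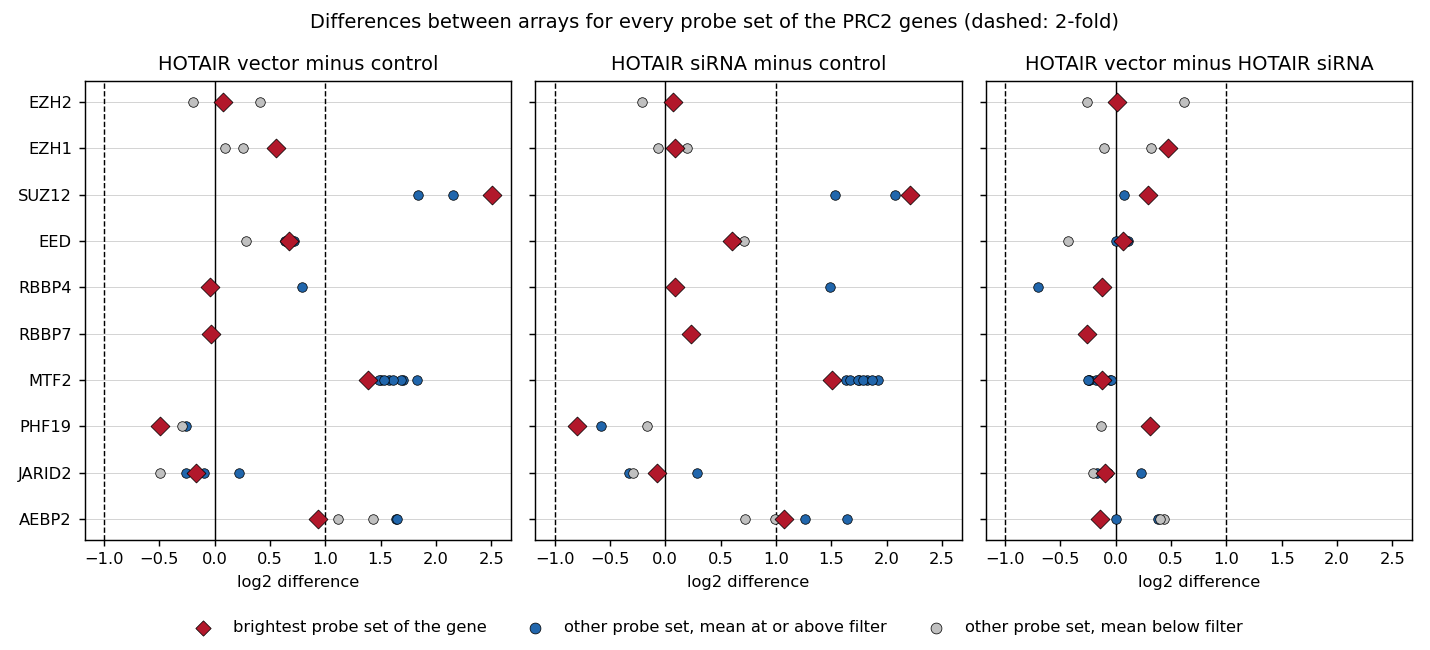
Log2 difference (x axis) of each probe set of the 10 PRC2 genes (y axis) in HOTAIR vector minus control, HOTAIR siRNA minus control and HOTAIR vector minus HOTAIR siRNA. Diamonds are the brightest probe set of a gene, circles the others, grey where the mean lay below the filter, and dashed lines mark 2-fold; MTF2 probe sets lie between 1.38 and 1.83 in the first panel, and no probe set passes 2-fold in the third.

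Counted by probe set, 16 of 38 exceeded control by 2-fold or more in vector cells, beside 10.2% of the 44988 probe sets with 1 symbol, and 0 were lower, beside 1.1%. In siRNA minus control 16 were higher, beside 9.53%, and 0 lower, beside 1.11%. The 44988 include probe sets below the filter, whereas 29 of the 38 passed it. Among probe sets above the filter, the share higher in vector cells ran from 10.5% (names ending in _x_at) to 22.9% (_s_at). For siRNA cells it ran from 9.89% to 23.8% over the same endings. The 16 came from 3 genes in the vector comparison, namely MTF2 with 9, AEBP2 with 4 and SUZ12 with 3. In the siRNA comparison they came from 4 genes, since AEBP2 had 3 and RBBP4 had 1. The AEBP2 probe sets counted in the vector comparison include 11740177_x_at and 11724878_s_at, which averaged below the filter. Probe sets of a gene measure the same RNA on the same array, so these counts do not add evidence gene by gene.

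Between the arms, without the control array, the PRC2 genes differed little. On the brightest probe sets the differences in vector minus siRNA ran from -0.26 for RBBP7 to 0.47 for EZH1, with a median of -0.04, 5 above 0 and 5 below, beside a median of 0.01 for all genes kept. SUZ12 was at 0.29 and PHF19 at 0.31, each a little over the probe set SD of 0.21, while SUZ12 was at 0.07 on 11739486_at. That SD does not measure variation between samples, so it cannot tell whether such differences would recur. None of the 38 probe sets was 2-fold apart in either direction, beside 1.24% of all probe sets higher and 1.09% lower. The differences of SUZ12, MTF2 and AEBP2 from control therefore appeared in comparisons that share the control array, and had no counterpart of that size between the vector and the siRNAs.

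**Figure D3:**
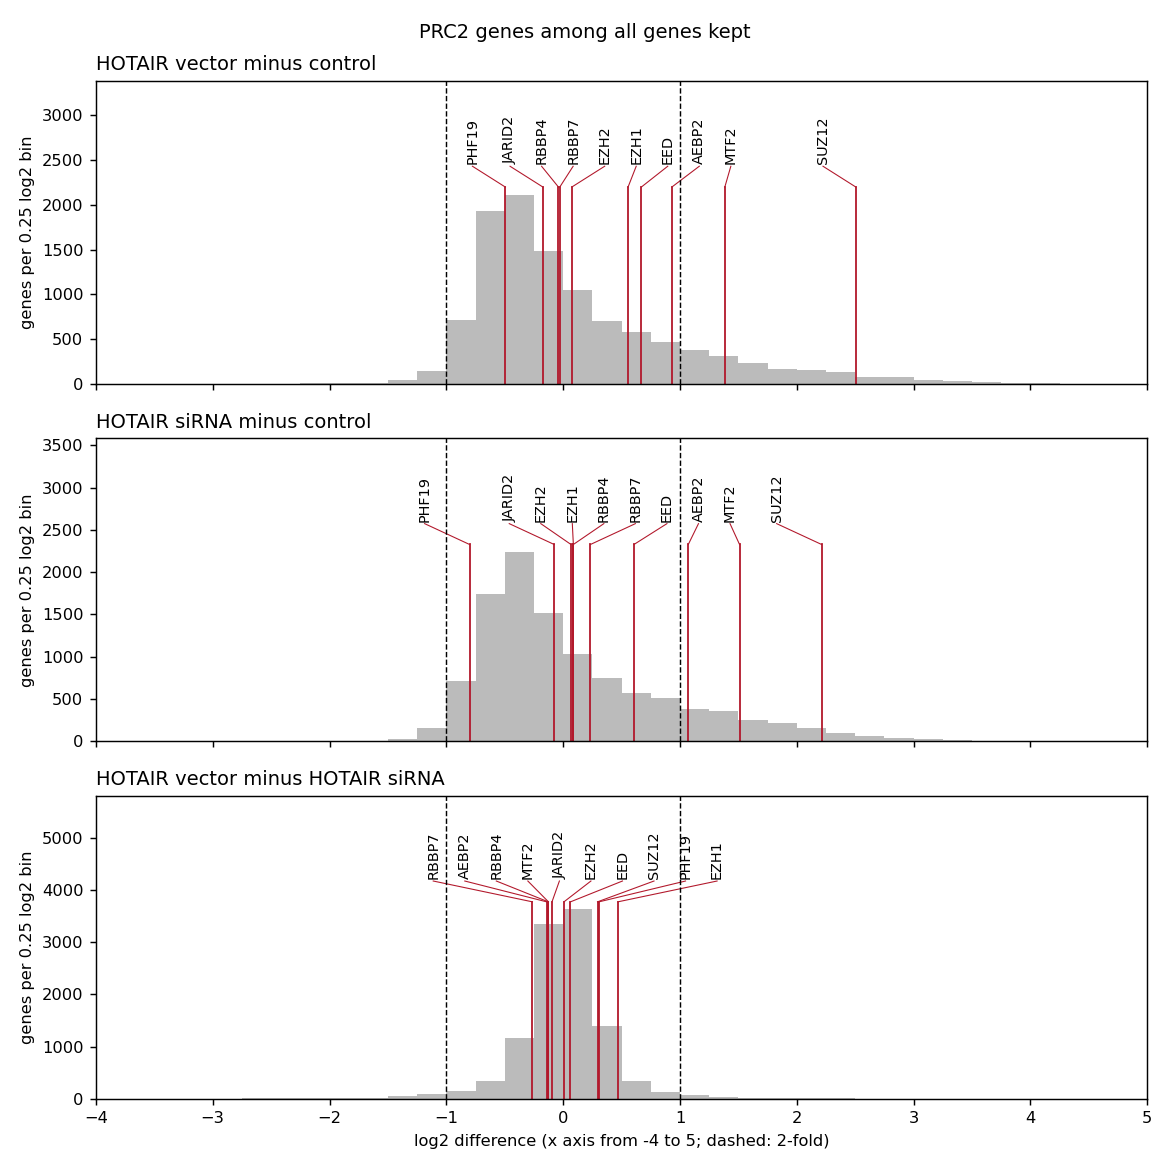
Number of genes (y axis, per bin) by log2 difference (x axis) for the 10917 genes kept, in HOTAIR vector minus control, HOTAIR siRNA minus control and HOTAIR vector minus HOTAIR siRNA, with the brightest probe set of each PRC2 gene as a red line and 2-fold as dashed lines. SUZ12, at 2.51 and 2.21, lies in the right tail of both comparisons with control, and all 10 genes lie between the dashed lines in the third panel.

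The genes whose pair of differences from control was most like that of SUZ12, by Euclidean distance over the 3 arrays, were CCDC88A (2.50 in vector and 2.19 in siRNA cells), OSTM1 (2.52 and 2.18), ZNF805 (2.47 and 2.18) and SUCO (2.53 and 2.26). For MTF2 they were FHIP2A (1.37 in vector and 1.53 in siRNA cells), CAND1 (1.36 in vector cells, and as close in siRNA cells), PALS1 (1.36 and 1.53) and TTBK2 (1.35 and 1.51). Within a distance of 0.25 there were 87 genes for SUZ12 and 242 for MTF2, so many genes had nearly the same values. The control levels of CCDC88A, OSTM1, ZNF805 and SUCO were 4.86, 5.11, 4.13 and 4.86, all below the filter level of 5.28 and unlike that of SUZ12, so these genes passed the filter through the arrays where they are high and the sizes of their differences are uncertain.

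Genes that act with or against PRC2 were described by list. Beside their counts of lower genes, 2.05% of all genes kept were 2-fold lower than control in vector cells and 1.85% in siRNA cells. Of 9 other PRC2-associated genes kept, 2 were at least 2-fold higher than control in each arm (22.2%, beside 15.2% and 14.9% of all genes kept) and 0 lower. These were LCOR, whose locus encodes a PRC2-associated protein, at 2.84 in vector and 2.31 in siRNA cells over a control level of 5.04, below the filter level, and the deacetylase gene SIRT1, at 1.47 and 1.31 (0.89 and 0.79 with the mean over probe sets). The list medians were 0.07 and 0.02.

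PRC1 adds ubiquitin to histone H2A, a mark that PRC2 with JARID2 and AEBP2 can bind. Of 22 PRC1 genes kept, 3 were higher in each arm and 0 lower, 13.6%, close to the background of 15.2% and 14.9%. PCGF5, of the variant complexes, read 9.47 in vector and 8.67 in siRNA cells, against 6.38 in control cells. It differed from control by 3.09 and 2.29 on that probe set, and averaging its probe sets gave 2.04 and 1.03. PHC3, a Polyhomeotic subunit, differed by 2.33 and 2.31, but by 0.99 and 0.50 with the mean over probe sets, and RYBP, which marks variant complexes, by 1.48 and 1.45. The PRC1 medians were both -0.23, below 0 like the median gene. In the PRC1 list some genes were above control and others, such as PHC2 at -0.69 and -0.73, were below. All genes kept also lay on both sides, with quartiles of -0.51 and 0.49 in vector minus control and -0.49 and 0.49 in siRNA minus control. The mix is therefore not read as a trait of the complex.

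Of 6 genes kept of the deubiquitinase that removes the PRC1 mark, 0 were higher in either arm, beside 15.2% and 14.9% of all genes kept. Only 1 was lower, in siRNA cells, ASXL1 (-1.07, or -0.36 with the mean over probe sets), beside 1.85% of all genes kept. Only EP300 and CREBBP, which acetylate the lysine that PRC2 methylates, were kept in the list of enzymes opposing PRC2 there. The demethylase genes KDM6A (1.25 in vector and 0.85 in siRNA cells) and KDM6B (-0.24 and -0.44) were measured but fell below the filter. EP300 was at 0.65 and 0.47 and CREBBP at -0.09 and 0.11. Of 10 genes of the NSD, SETD and KMT2 families, most of which encode histone H3 methyltransferases whose marks hinder PRC2, 2 were higher in each arm (20.0%, beside 15.2% and 14.9%) and 0 lower. These were KMT2E, whose protein is regarded as lacking methyltransferase activity, at 1.62 and 1.49 and KMT2C at 1.02 and 1.10, the last 0.43 and 0.53 with the mean over probe sets.

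Of 27 genes from the other complexes that contain RBBP4 or RBBP7, 6 were higher in each arm (22.2%, beside 15.2% and 14.9% of all genes kept) and 0 lower, with medians of -0.16 and -0.04. LIN9, of the cell cycle complex MuvB, read 7.06 in vector and 6.61 in siRNA cells, against 3.65 in control cells, which is below the filter level. Its differences of 3.40 and 2.96 were 2.05 and 1.88 with the mean over probe sets. ARID4B, of the Sin3 deacetylase complex, was at 2.32 and 1.96 (1.39 and 1.14 with the mean over probe sets), the histone acetyltransferase gene HAT1 at 1.64 and 1.11, and the chromatin remodeller gene SMARCA1 at 0.92 and 1.79. In vector minus siRNA 0 genes of these lists were 2-fold apart on their brightest probe sets, beside 1.73% of all genes kept higher and 1.85% lower. On those probe sets SMARCA1 was at -0.87 and PCGF5 at 0.80. With the mean over probe sets PCGF5 passed 2-fold (1.01) and SMARCA1 was at -0.83.

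**Figure D4:**
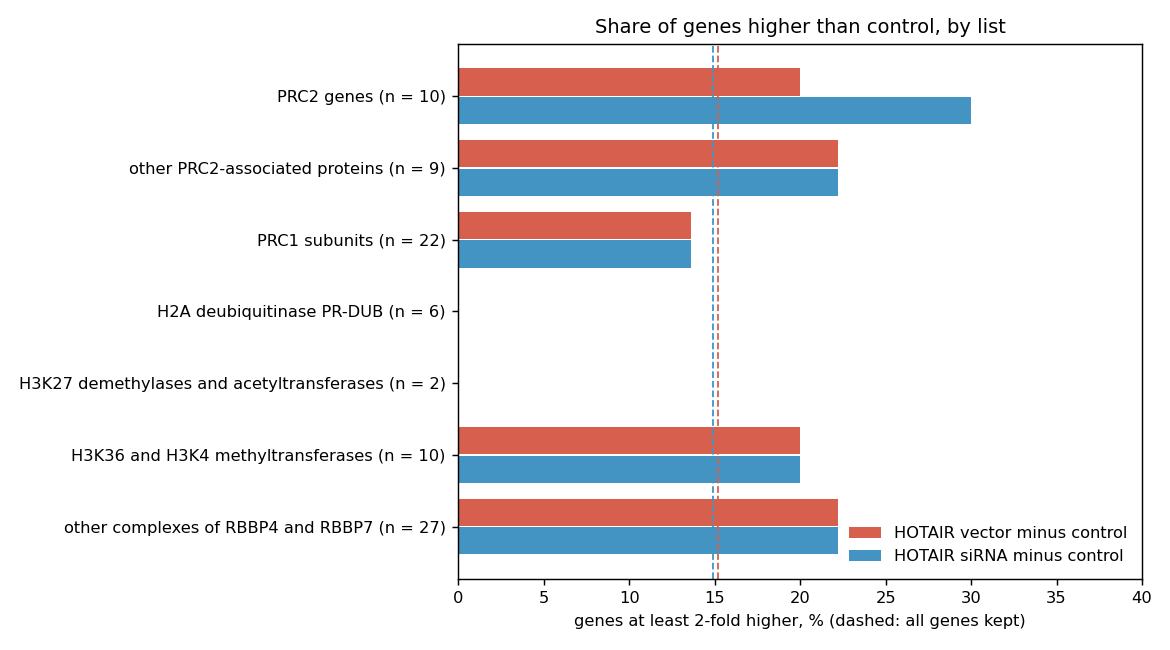
Share of genes at least 2-fold higher (x axis, percent) in HOTAIR vector minus control (red) and HOTAIR siRNA minus control (blue) for the PRC2 genes and 6 lists of related genes (y axis, with the number kept), with dashed lines for all genes kept at 15.2% and 14.9%. The PRC2 bars are at 20.0% and 30.0%, and the lists are small, so a single gene moves a bar by several percent.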

How the data were processed

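Biotin-labelled RNA (a 3' IVT kit, per the labels' protocols) was read on 3 arrays. The authors deposited log2 signals per probe set, and RMA is the tool named in the submitters' processing notes. The log2 scale was read from their range, and neither version nor settings of RMA are stated. The method can compress differences near background, so folds of dim probe sets may be understated, which was not tested here.

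Probe sets were named from a table of the platform's annotation, which gave 1 symbol for 44988, several for 1832 and did not list 2473. A gene was represented by its brightest probe set (18132 genes) and kept where this averaged 5.28 or more, the median over probe sets. Groups came from the treatment labels. Log2 differences were taken between arrays and counted past 2-fold. Each group has 1 array, so nothing was tested, and the number of arrays limits the precision. The members and gene lists were chosen with earlier results of these data known. All 10 members were named, and from each list the up to 4 most different genes past 2-fold, or else the 2 most different. PHF1 and PHC2 were named after their values were seen. The 6 lists held 93 genes. The 4 genes nearest to each member past 2-fold in both arms were also named. Counting was tested on simulated arrays.

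Alternatives changed the fold threshold (1.5 or 3), the filter (none, or the 75th percentile), the summary (mean of a gene's probe sets, or without those ending in _x_at or _s_at) and the scaling (repeated quantile normalization, cyclic loess with span 0.4 and 3 cycles, or centring on the median gene). Software was R 4.3.3 with limma 3.58.1 for scaling, and numpy 2.4.6, pandas 2.3.3 and matplotlib 3.10.9 under Python 3.11.15.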

Additional observations from a re-analysis of the deposited data

How the results depend on the processing

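No paired analysis was possible because each group is 1 array. At 1.5-fold 4 of 10 PRC2 genes were past the threshold in vector minus control, and 5 of 10 in siRNA minus control. Of all 10917 genes kept, 4616 and 4456 were. In each comparison 4 PRC2 genes were higher, beside 22.9% and 22.8% of genes kept. In siRNA minus control 1 was lower (PHF19). At 3-fold 1 PRC2 gene was past the threshold in each comparison (SUZ12), beside 922 and 796 of the genes kept. At 2-fold the vector count of 2 became 3 after cyclic loess, after centring, on averaging the probe sets of a gene and on leaving out those ending in _x_at or _s_at. Of all genes kept, 17.4%, 18.1%, 12.8% and 14.7% were higher under these alternatives, in that order. Without probe sets of those endings AEBP2 was given by 11724877_a_at, whose control level was below the filter level. The siRNA count of 3 became 2 after repeated quantile normalization, where 13.5% of all genes kept were higher. It became 4 without probe sets of those endings, where 14.1% were. The vector and siRNA counts are therefore not read as different. Between the arms the count of PRC2 genes was 0 under every alternative run, beside 1057 of 10917 genes kept at 1.5-fold. For all genes kept, the counts apart, listed as vector minus control, then siRNA minus control, then vector minus siRNA, were 4616, 4456 and 1057 at 1.5-fold, 922, 796 and 134 at 3-fold, and 1134, 1158 and 154 with the filter at the 75th percentile, where fewer genes were counted. With the mean over probe sets 1151 were apart in siRNA minus control, and 228 in vector minus siRNA. Of the calls in vector minus control 88.1% were higher, against 73.6% after repeated quantile normalization and 54.1% at 1.5-fold, and in siRNA minus control 88.9%, against 78.3% and 55.9%. Of 147 values of single PRC2 genes under the alternatives of scaling and summary (a filter cannot change them), 135 moved by less than the spread between probe sets, 12 by more and 0 past 2-fold changed sign. The 12 all came from the choice of probe sets, and RBBP4 had the largest of them (1.49 in siRNA minus control without probe sets ending in _x_at or _s_at). Centring shifted all genes of a comparison by the same amount, less than the spread between probe sets, so it could move none by more. Leaving out probe sets could not change a gene whose brightest probe set stayed. The count of 135 therefore overstates how stable the values are. EZH1 could not be followed with the filter at the 75th percentile or the mean over probe sets, where it was not kept. The causes were not tested.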
